A study of Mus musculus with 24 samples.

Results

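DNA 5-methylcytosine (5mC) was compared between WT mouse embryonic stem (mES) cells transfected with siRNA against Nsun2 (siNsun2) and WT mES cells transfected with a control siRNA (siNC). The signal came from MeDIP-seq, that is, sequencing of the DNA fragments that bind a 5mC antibody, and it was counted in genome windows of 100 bp. The members described here are all 31 windows of the deposited table for this comparison, of 14618 distinct windows in the 4 tables of the series. That table held only windows that had passed the authors' adjusted p-value threshold of 0.1 in this same comparison, so the difference between the groups is described below and not tested anew. Values of windows just outside that threshold were not analysed here.

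Each group held 3 immunoprecipitated (IP) libraries. The WT siNC libraries held 11528982, 13287526 and 15353436 reads and the WT siNsun2 libraries 10561761, 14489578 and 13887381, so depth did not separate the groups. The cells were grown in serum with LIF and with the inhibitors CHIR99021 and PD0325901, conditions that hold mES cells in the pluripotent state, and they carried no knockout. The other 18 samples of the series were Tet2-KO cells with siNC or siNsun2, and IP and input libraries of Pspc1-KO and WT cells without siRNA. Inputs of the 6 libraries compared here were not analysed, so that more 5mC and more copies of a sequence in the DNA cannot be told apart. Replicates 2 and 3 of WT siNsun2 differed by less than sampling noise (chi-square per degree of freedom 0.458, against 2.04 for replicates 1 and 2), as did replicates 2 and 3 of WT siNC over the longest table that holds them (0.953, against 1.35). Over the 31 windows alone the siNC pair gave 1.28, against 1.19 for replicates 1 and 2, so there it was not the closest pair. Each such pair was counted as 1 sample, which gives n = 2 in every mean ± SD. The value of each library is still given. Log2 fold changes are of the means of all 3 libraries of a group, and their SE is between libraries with each pair counted once. Counting the pairs once in the means too moved the log2 fold change of a region by at most 0.0094, and of none by more than its SE.

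NSUN2 is a methyltransferase that installs 5-methylcytosine on RNA, including tRNA and chromatin-associated RNA, and TET2 oxidizes the same mark on RNA and on DNA. Methylation of DNA itself is laid down by the DNMT enzymes, mostly at CpG sites. The major satellite of the mouse, also called gamma satellite, is an AT-rich tandem repeat that fills the pericentromeric heterochromatin of most chromosomes. It is packed with H3K9me3 and HP1, is densely methylated in most tissues, and is transcribed into RNA at a low level.

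The list was almost entirely this satellite. Of the 31 windows, 29 (93.5%) lay in copies of one repeat unit of 234 bp, which was the most common spacing at which the listed sequences repeated themselves. A unit was read from the unplaced contig that held 8 of the windows, starting at the first base of a listed window, and satellite windows were those with at least 50 bases in an alignment to it. Identity of the 29 windows to this unit ranged from 87% to 100%. The sequences below are from RefSeq GRCm38, the same build as mm10, and are shown so that the repeat and the single exception can be read side by side. They run 5′ to 3′ on the forward strand, with CpG sites, the usual target of methylation, in capitals.

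Satellite unit, chrUn_JH584304:72101-72334: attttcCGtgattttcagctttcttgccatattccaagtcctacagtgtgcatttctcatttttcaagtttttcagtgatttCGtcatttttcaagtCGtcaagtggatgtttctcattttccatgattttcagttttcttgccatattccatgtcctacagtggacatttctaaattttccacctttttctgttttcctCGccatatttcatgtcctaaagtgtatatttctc

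Listed satellite window with the most CpG sites, chr9:3005701-3005800: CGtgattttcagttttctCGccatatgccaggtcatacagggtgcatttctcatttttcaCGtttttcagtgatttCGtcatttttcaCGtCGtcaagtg

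Listed satellite window with the strongest signal, chr9:3020101-3020200: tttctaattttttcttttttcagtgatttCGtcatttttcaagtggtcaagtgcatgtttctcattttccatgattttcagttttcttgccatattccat

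Listed satellite window of chromosome 2, chr2:98663901-98664000: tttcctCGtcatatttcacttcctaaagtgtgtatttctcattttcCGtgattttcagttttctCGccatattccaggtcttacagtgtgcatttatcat

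Edge of a satellite fragment, chr13:77438901-77439100: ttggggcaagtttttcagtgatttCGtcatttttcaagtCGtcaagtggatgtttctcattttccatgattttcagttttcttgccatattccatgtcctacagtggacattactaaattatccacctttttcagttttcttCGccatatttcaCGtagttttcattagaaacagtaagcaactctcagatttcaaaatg

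Region in Sfi1 and Drg1, chr11:3193001-3193200: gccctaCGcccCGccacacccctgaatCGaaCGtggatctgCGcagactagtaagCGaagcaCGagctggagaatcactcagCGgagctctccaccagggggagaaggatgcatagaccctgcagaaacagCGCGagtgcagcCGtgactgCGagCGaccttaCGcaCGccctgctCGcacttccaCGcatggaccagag

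The unit was poor in CpG, with 4 sites in 234 bp and a GC content of 35.0%. The strongest window held 1 CpG in 100 bp and the richest held 6. In the chromosome 13 region the satellite both started and ended within the printed sequence. The first and the last printed bases had no alignment to the unit. The Sfi1 and Drg1 region was of another kind, with 17 CpG sites in 200 bp, a GC content of 62.0% and no base marked as repeat.

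The 31 windows merged into 18 regions when touching windows were joined. Of these, 9 regions with 16 windows lay within the first assembled bases of chromosome 9, between positions 3005701 and 3037200. All 16 windows were in introns of the lincRNA gene Gm26870, and some of them also fell in introns or exons of the predicted genes Gm11168, Gm10719, Gm10718, Gm10717 and Gm10715 on the other strand. The contig chrUn_JH584304 held 4 regions with 8 windows, none of them in an annotated gene, and the contig chrUn_GL456392 held 1 window at positions 22201 to 22300. The remaining satellite regions were an exon of the predicted gene Gm10801 on chromosome 2, 2 windows in an intron of 2210408I21Rik on chromosome 13, and a window on chromosome 14 at positions 19419301 to 19419400, 371 bp from Gm21738. Regions are numbered below in their order along chromosome 9 and along JH584304.

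The reference holds only a small part of the satellite that mouse chromosomes carry, 236133 bp in 2365 windows, or 0.00866% of all windows of the assembly. The listed windows made up 1.23% of these. JH584304 held 477 satellite windows, of which 8 were listed, and chromosome 9 held 388, of which 16 were listed. Chromosome X held 267 and chromosome Y held 135, and none of either was listed. The listed satellite windows had a mean of 2.28 CpG sites, against 1.86 for all 2365 reference satellite windows, with the same median of 2. Each listed one had at least 1, while 306 of the 2365 (12.9%) had none. Which of the other satellite windows had been close to the threshold cannot be told from a table of passing windows.

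The copies are not independent measurements. The aligner reports a single position for a read that matches several, so reads of one copy can be placed on another. The whole 100 bases of a listed window occurred between 1 and 8 times in the reference, and once for 9 windows. Their middle 32 bases occurred between 1 and 176 times, and once for 4 windows: both windows in Sfi1 and Drg1, the second window on chromosome 13 (starting at 77439001) and the first of JH584304 (starting at 68501).

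**Figure D1:**
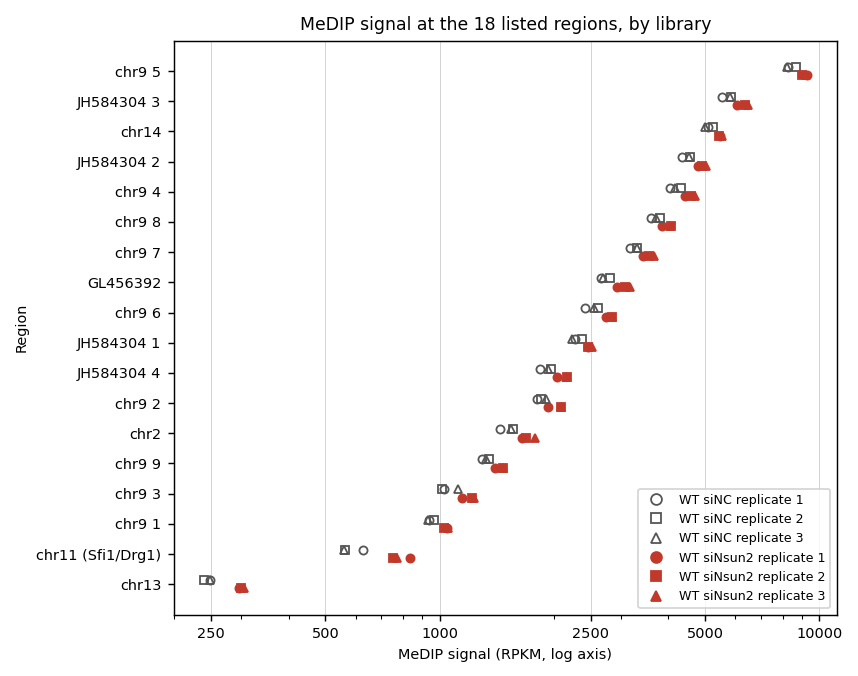
MeDIP signal in RPKM, on a log axis, at each of the 18 regions in the 3 WT siNC libraries (open) and the 3 WT siNsun2 libraries (filled), with the marker shape giving the replicate number. Averaged over libraries, single windows span from 271 RPKM on chromosome 13 to 8770 RPKM in the strongest region of chromosome 9, and at every region the filled symbols lie to the right of the open ones.

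Every listed window was higher with siNsun2. RPKM is a read count divided by window length and by library size. In all 31 windows the lowest siNsun2 library lay above the highest siNC library, a separation that entry to the list favours: the study tested 4148675 windows, and 0.000747% of them passed its threshold in this direction. The median log2 fold change of the 31 windows was 0.14, with values from 0.10 to 0.45. The siNsun2 libraries, each set against the mean of siNC, gave medians of 0.10, 0.16 and 0.17 for replicates 1, 2 and 3. Selection on these very libraries inflates such values.

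The satellite windows took 0.750%, 0.789% and 0.771% of all reads of the siNC libraries 1, 2 and 3. A read that reaches into neighbouring windows may be counted in each, so these are sums of window counts over the library total. With siNsun2 these shares were 0.824%, 0.848% and 0.861%. The highest siNC library was thus below the lowest siNsun2 library. As group values these were 0.765% ± 0.0214 with siNC and 0.839% ± 0.0216 with siNsun2 (SD, n = 2 each), a ratio of 1.10. Taken by replicate number, the ratios were 1.10, 1.08 and 1.12. Replicate 1 had the lowest satellite share in either group.

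**Figure D2:**
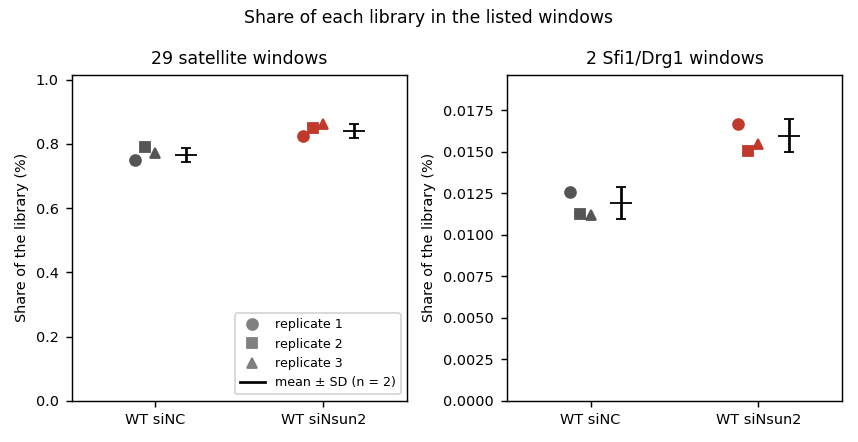
Sum of window counts over the library total, in percent, for the 29 satellite windows (left) and the 2 windows of Sfi1 and Drg1 (right). Each WT siNC and WT siNsun2 library is shown, with the mean and SD of n = 2 beside the points. A read that reaches into neighbouring windows may be counted in each. The satellite windows take from 0.750% to 0.789% with siNC and from 0.824% to 0.861% with siNsun2, and the Sfi1 and Drg1 windows stay under 0.017% in every library.

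Among the satellite regions the signal varied far more between places than between treatments. The strongest was the fifth region of chromosome 9, at 3020101 to 3020200 in an exon of Gm10719. It gave 8264, 8668 and 8220 RPKM with siNC and 9263, 8990 and 9212 RPKM with siNsun2. The siNsun2 libraries were all above the siNC libraries there, and the log2 fold change was 0.13 ± 0.02 (SE).

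The next strongest satellite was on JH584304, in the third of its regions, at 83901 to 84100. The siNC libraries gave 5544, 5856 and 5812 RPKM and the siNsun2 libraries 6079, 6363 and 6505 RPKM. Replicate 1 was the lowest library in each group, and the log2 fold change was 0.14 ± 0.055 (SE). The window on chromosome 14 followed, and had the smallest log2 fold change of the 18 regions, 0.10 ± 0.01 (SE). Its siNC libraries gave 5088, 5262 and 4998 RPKM and its siNsun2 libraries 5474, 5457 and 5540 RPKM, so that the gap between the groups was 195 RPKM. The SE at this window takes siNC replicates 2 and 3 as 1 sample, and the counting error of 0.014 was larger. Without siNC replicate 2 the log2 fold change there was 0.12, and without siNC replicate 3 it was 0.085.

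The other regions with small changes were the eighth of chromosome 9, at 3034301 to 3034500, and the first of JH584304, at 68501 to 68700. In the former the siNC libraries gave 3611, 3793 and 3708 RPKM and the siNsun2 libraries 3855, 4059 and 4049 RPKM, a log2 fold change of 0.11 ± 0.05 (SE). Replicate 1 of siNsun2 stood 61.9 RPKM above the highest siNC library. In the JH584304 region, which holds a window whose middle 32 bases were found once in the reference, the values were 2266, 2371 and 2230 RPKM with siNC and 2464, 2464 and 2525 RPKM with siNsun2. Its log2 fold change was 0.12 ± 0.01 (SE), and 0.14 without siNC replicate 2. The counting error of each of its windows, 0.021, was larger than this SE.

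The weaker satellite regions changed in the same direction. The first region of chromosome 9, at 3005701 to 3005900 in introns of Gm11168 and Gm26870, held the window with 6 CpG sites printed above. It gave 935, 966 and 933 RPKM with siNC and 1047, 1028 and 1053 RPKM with siNsun2, a log2 fold change of 0.14 ± 0.01 (SE). The counting errors of its 2 windows, 0.033 and 0.032, were larger than this SE. The third region, at 3008101 to 3008200, had one of the larger changes in the array, 0.19 ± 0.05 (SE), from 1029, 1014 and 1117 RPKM to 1148, 1217 and 1228 RPKM. Replicate 1 of siNsun2 was there closest to siNC.

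The chromosome 13 region was the shallowest of all and had the second largest change. Its siNC libraries gave 248, 239 and 248 RPKM and its siNsun2 libraries 296, 299 and 305 RPKM. The means were 246 ± 2.64 and 299 ± 3.91 RPKM (SD, n = 2 each), and the log2 fold change was 0.29 ± 0.02 (SE). Counting alone gave an error of 0.062 and 0.063 on the log2 scale in its 2 windows, more than the SE between libraries. Here 94 bases of the first window and 60 of the second aligned to the satellite, in an intron of 2210408I21Rik, far from a centromere in the assembly. The 2 windows gave log2 fold changes of 0.29 each.

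The other 9 regions, all satellite, had log2 fold changes from 0.12 to 0.17, at 1314 to 4449 RPKM with siNC. At the chromosome 2 window in Gm10801 the siNC libraries gave 1445, 1563 and 1541 RPKM and the siNsun2 libraries 1647, 1690 and 1778 RPKM. The window of GL456392 gave 2665, 2809 and 2695 RPKM with siNC and 2931, 3071 and 3178 RPKM with siNsun2. Set against the siNC mean, replicate 1 of siNsun2 had the lowest log2 fold change in 24 of the 29 satellite windows and in neither window of Sfi1 and Drg1. Set against the siNC library of the same number, replicate 2 had the lowest ratio in 20 of the 29, replicate 1 in 8 and replicate 3 in 1.

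**Figure D3:**
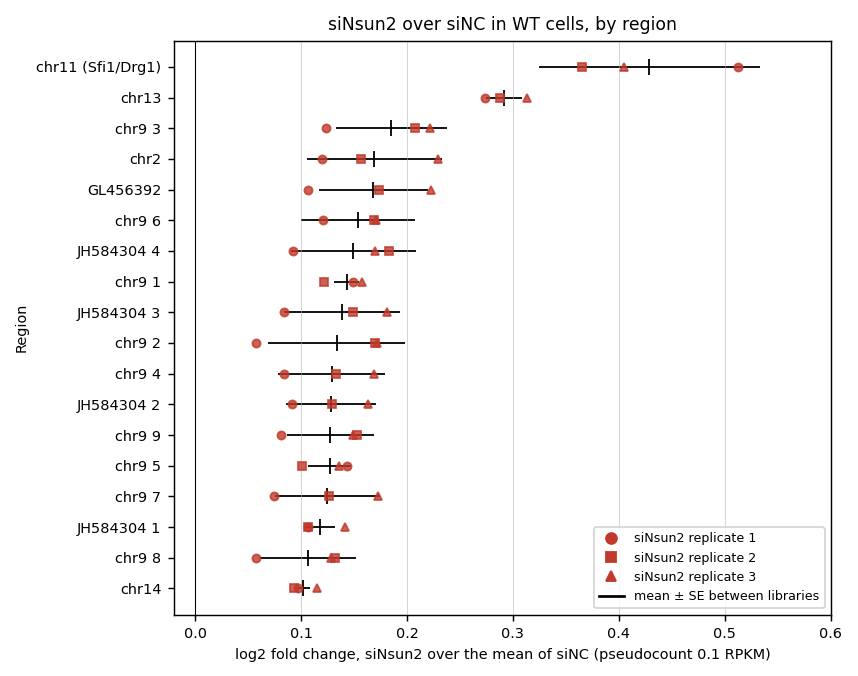
Log2 fold change of each siNsun2 library over the mean of siNC at the 18 regions (coloured points, with a pseudocount of 0.1 RPKM), with the value of the 3-library means (black) and its SE between libraries, for which near-identical pairs count once. The Sfi1 and Drg1 region (0.43) and the chromosome 13 region (0.29) stand at the top, and the remaining 16 lie between 0.10 and 0.19.

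A listed window held from 284 to 13026 reads per library, and the error from counting alone was between 0.011 and 0.063 on the log2 scale per window. The error between libraries ranged from 0.007 to 0.12, and in 8 of the 31 windows it was smaller than the counting error. Counting errors take reads as independent molecules, which reads without molecular identifiers are not. By CpG number, the 9 satellite windows with 1 CpG had a median log2 fold change of 0.13, the 8 with 2 CpG sites 0.15, the 9 with 3 sites 0.14, the 2 with 4 sites 0.17 and the only one with 6 sites 0.14. The ranges of the groups with 1, 2 and 3 sites overlapped, from 0.10 to 0.16, from 0.12 to 0.29 and from 0.11 to 0.19.

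The relative methylation score, a fraction between 0 and 1 that MEDIPS corrects for CpG density, was already high at these windows, from 0.64 to 1.00 as the mean of siNC. With siNsun2 the score was higher in 28 windows and equal in 3, with a median difference of 0.0067 and a largest difference of 0.027. In the 3 windows without a difference the score stood at its upper limit of 1.00 in each group, so that it could not rise there. They were the strongest window of chromosome 9, the window of chromosome 14 and the window of JH584304 that starts at 83901.

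A quasi-likelihood refit with edgeR of the counts of the 31 windows, adjusted by Bonferroni over the 4148675 windows of the study, left 2 windows past the same threshold (6.45% of 31), and both were in Sfi1 and Drg1. With the replicate number as a block 6 windows passed, and with each pair of near-identical libraries summed to 1 library none did. With TMM factors or with DESeq2 size factors, both computed on the listed windows alone, none passed either. An unadjusted p under 0.05 was reached by 31 windows in the refit without the block, by 28 with pairs summed, by 4 with TMM factors and by 5 with DESeq2 size factors. Both kinds of factor remove any change that the windows share. As all 31 were listed as higher, the counts with these factors decide nothing about the difference. Since the windows had been selected on these libraries, the refit adds no evidence for the difference.

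The exception to the satellite, and the largest change, was a CpG-rich stretch of chromosome 11, at 3193001 to 3193200, intronic in both Sfi1 and Drg1, which overlap there on the reverse strand. SFI1 is a centrosomal protein that binds centrin, and DRG1 is a GTP-binding protein of the translation machinery. The siNC libraries gave 629, 562 and 560 RPKM and the siNsun2 libraries 833, 752 and 773 RPKM. Replicate 1 was the highest library in each group, the groups did not overlap, and the means were 595 ± 48.2 and 798 ± 49.7 RPKM (SD, n = 2 each). The log2 fold change was 0.43 ± 0.10 (SE). In a search of the assembly these 200 bp aligned to their own position and to no other, but the assembly may not hold every copy that the cells carry.

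The same pair of windows passed the threshold when siNsun2 was compared with siNC in Tet2-KO cells, in the opposite direction (0.00378% of 4359686 windows tested there were listed as lower). The mean of both windows was 692, 665 and 673 RPKM in the Tet2-KO siNC libraries and 468, 444 and 408 RPKM in the Tet2-KO siNsun2 libraries. In Tet2-KO cells the siNsun2 libraries were thus all below the siNC libraries, whereas in WT cells they were all above them. In a fit of all 12 libraries the first window, at 3193001, had a log2 fold change of 0.45 ± 0.05 in WT and -0.67 ± 0.06 in Tet2 KO (SE, all 3 libraries of a group taken as separate). The second, at 3193101, had 0.42 ± 0.07 in WT and -0.59 ± 0.08 in Tet2 KO.

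The difference of the effects, Tet2 KO minus WT, was -1.11 ± 0.08 for the first window and -1.003 ± 0.11 for the second (SE, 12 libraries). Replicates 2 and 3 of Tet2-KO siNC also differed by less than sampling noise (a chi-square of 0.958 per degree of freedom over the longest table), and no pair of Tet2-KO siNsun2 libraries exceeded it (0.806 to 0.830), so these SEs may be too small. With near-identical pairs of WT siNC, WT siNsun2 and Tet2-KO siNC summed, it was -1.12 ± 0.11 and -1.01 ± 0.14. TMM factors computed on these windows alone, which remove what both windows share, left -0.066 and 0.046. Windows had values in both tables only if they had passed in both comparisons, here in opposite directions, so a difference was fixed by the selection on these libraries. The spread was moreover estimated from 2 touching windows, and no p-value is given for it.

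Further libraries held values for the same windows. In the Pspc1 experiment, without siRNA, the WT IP libraries gave 1272, 1292 and 1322 RPKM and the Pspc1-KO IP libraries 1058, 1068 and 1046 RPKM, and both windows were listed as lower in Pspc1 KO, as were 0.00463% of the 5378176 windows tested. Input libraries, sequenced without the antibody, gave 22.6 to 26.6 RPKM in WT and 25.9 to 26.9 RPKM in Pspc1 KO. The IP signal of this region was thus well above that of the input in the cells where both were measured. The input itself was high for a sequence found once in the assembly: the other 305 windows of that table had input medians from 2.65 to 3.55 RPKM, and reads spread evenly over the assembly, each counted in 1 window, would give 0.366 RPKM. The number of copies in these cells was not measured. Levels are set side by side across tables that were each scaled to their own library totals.

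**Figure D4:**
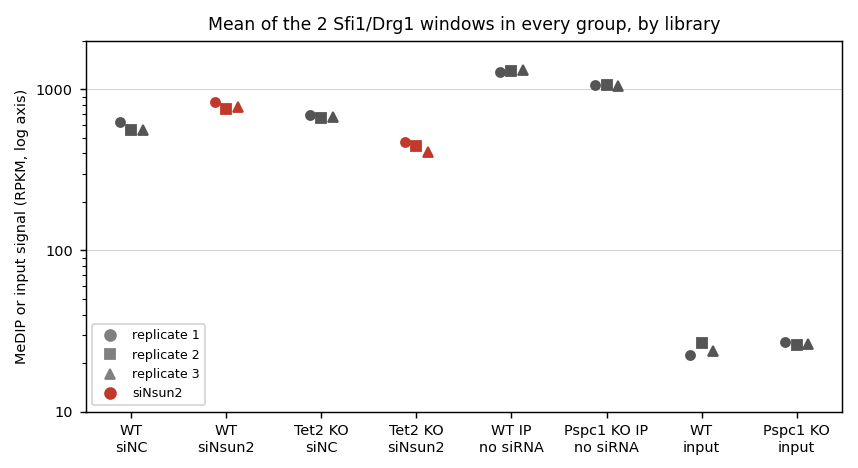
Mean signal of the 2 Sfi1 and Drg1 windows in RPKM, on a log axis, in every library of the 8 groups, with siNsun2 groups coloured and marker shapes giving the replicate number. The siNsun2 libraries lie above siNC in WT cells (752 to 833 against 560 to 629) and below siNC in Tet2-KO cells (408 to 468 against 665 to 692), and the input libraries lie between 22.6 and 26.9.

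None of the 29 satellite windows was listed for siNsun2 in Tet2-KO cells, and that list of 244 windows held 0 satellite windows of any position. Since 0.0056% of all windows tested there were listed, a count of 0 among 29 is near that background and is no result about the satellite. Whether the satellite signal changed there was not tested, because the table holds passing windows only. In the comparison of Tet2 KO with WT, both with siNC, 22 of the 31 windows were listed, all as higher in Tet2 KO and all satellite (0.0568% of the 4252847 windows tested there were listed as higher). That comparison uses the same 3 WT siNC libraries as the siNsun2 comparison, so a low satellite signal in these libraries would enter both, and the values are set side by side only.

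At the chromosome 2 window in Gm10801 the Tet2-KO siNC libraries gave 1976, 1837 and 1989 RPKM, beside the 1647 to 1778 RPKM of WT siNsun2 and the 1445 to 1563 RPKM of WT siNC. At the strongest window of chromosome 9 they gave 10296, 9498 and 9748 RPKM, and at the chromosome 14 window 6198, 6128 and 6022 RPKM. Over the 22 windows, the ratio to the WT siNC mean was from 1.07 to 1.13 with siNsun2 (median 1.10) and from 1.17 to 1.39 in Tet2 KO (median 1.25). In each of the 22 windows the lowest Tet2-KO library lay above the highest siNsun2 library. Windows have Tet2-KO values here only because they passed in that comparison, which favours larger Tet2-KO ratios, and the other 9 of the 31 windows have none.

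**Figure D5:**
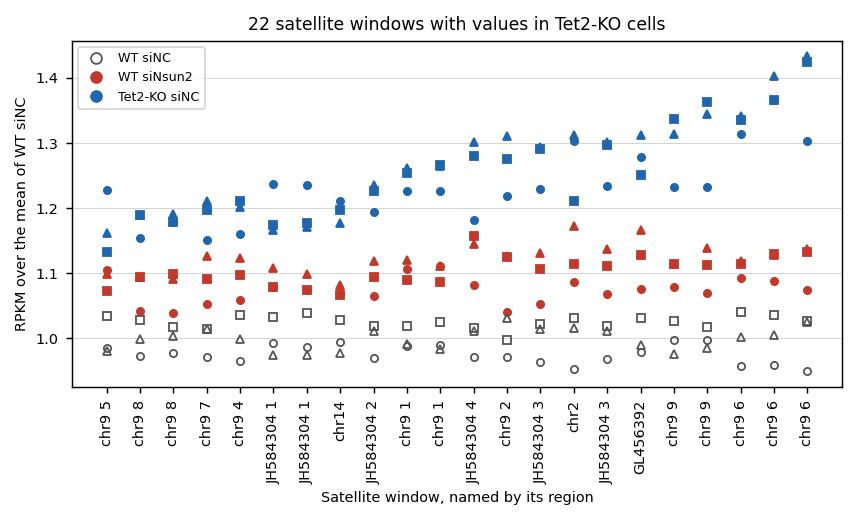
RPKM divided by the mean of the WT siNC libraries at the 22 satellite windows that also have values in Tet2-KO cells, by library, ordered by the Tet2-KO ratio. WT siNsun2 libraries lie above WT siNC at each window, with mean ratios from 1.07 to 1.13, and Tet2-KO siNC libraries lie above both, with mean ratios from 1.17 to 1.39.

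In the whole list for Tet2 KO, 147 of 14279 windows were satellite, all of them higher in Tet2 KO, as were 2414 of all 14279. In the list for Pspc1 KO, 14 of 307 were satellite, all of them lower, as were 249 of all 307. Those 14 windows, none of which is among the 31, are the only satellite windows with input values. Their median was 510, 502 and 515 RPKM in the WT IP libraries and 45.9, 38.2 and 51.0 RPKM in the WT input libraries, and in each WT library pair the IP value was above the input value.

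Among 33 genes, which were RNA m5C writers (such as Nsun2 and Trdmt1), readers or binders (such as Alyref and Mbd6), enzymes of 5mC oxidation (Tet1, Tet2, Tet3), DNA methylation (such as Dnmt1 and Uhrf1), 5mC binding and repair (such as Mbd1 and Tdg) and the partners of TET2 and of the PR-DUB complex, 0 had a listed window within 5 kb. Of all 22028 protein-coding genes 15 (0.0681%) had one, so that 0 of 33 is near the background. The Nsun2 gene itself, on chromosome 13 from 69533746 to 69635780, had none, and MeDIP does not measure its RNA or protein. These files therefore give no check of how far Nsun2 was depleted. Of the same 33 genes, 0 had a window listed for siNsun2 in Tet2 KO and 0 for Pspc1 KO, against 0.350% and 0.286% of all protein-coding genes. In the list for Tet2 KO 2 had one, Tet2 with 5 windows and Dnmt1 with 1, against 4.95% of all protein-coding genes.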

How the data were processed

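MeDIP-seq was analysed in 3 WT siNC and 3 WT siNsun2 libraries. Per the methods and labels, the authors trimmed reads (Trimmomatic 0.39), aligned them to mm10 (Bowtie2 2.4.1), removed duplicates (Picard) and tested windows with at least 10 reads with MEDIPS and edgeR, without correction for copy number. The deposited counts are raw reads. The deposited RPKM and the relative methylation score, a fraction, were computed by the authors. The deposited CpG score equalled the CpG number of the reference in 14618 of 14618 windows. The authors' fold changes and p-values were not used, except that the ratio of the deposited adjusted to unadjusted p-value gave the number of windows tested.

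Library totals were recovered as count over RPKM. Fold changes are log2 of group mean RPKM with a pseudocount of 0.1. Windows were refitted with edgeR 4.0.16 (quasi-likelihood) in R 4.3.3 with these totals, after a test on simulated data. DESeq2 1.42.0, the exact test, other scalings and left-out libraries were alternatives. Members and lists were chosen with earlier results of these data known. One gene of the pathway list is not reported here and is not among the 33. All libraries are given for the 3 regions with the smallest p, largest, smallest fold change, highest and lowest signal, those with a window whose middle 32 bases occur once in the reference and those also listed for siNsun2 in Tet2 KO. Chromosome 2 and GL456392 were added after their values were seen. Genes are from GENCODE. Contigs were matched to RefSeq by CpG number (73 of 73 and 7 of 7 windows).

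For libraries of the same number, deviations from the mean of their group correlated at 0.85, 0.34 and 0.58, above the limit of 0.1. Only number 1 was thereby told apart from the others. Numbers 2 and 3 were not told apart, with 0.33 and 0.66 across them. This comes from the data, over windows that are not independent, since no label gives the meaning of a number. The SDs, the SEs and the refit without the block take no account of a pairing. The paper describes its plotted genome-wide data as combined from biological replicates, but the labels name no separate cultures. The p-values thus measure the spread between these samples, which may be technical.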

Additional observations from a re-analysis of the deposited data

Results flagged for a closer look

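One result is set apart for a closer look, a difference between siNsun2 in Tet2-KO and in WT cells. At the Sfi1 and Drg1 window of chromosome 11 that starts at 3193001, the log2 fold change in Tet2 KO minus that in WT was -1.11. All 3 siNsun2 libraries were higher than siNC in WT cells, and all 3 were lower in Tet2-KO cells. The window has values in both tables because it passed in both comparisons, so the selection fixed a difference and no independent test of it was possible.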

How the results depend on the processing

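The tables hold passing windows only, so no genome-wide test could be repeated, and scalings computed on the listed windows remove any change these windows share. The count of 2 windows past the threshold was 0 with TMM factors or with DESeq2 size factors on the listed windows, 0 with near-identical pairs summed, 0 on the 4 windows whose middle 32 bases occur once in the reference, and 6 with the replicate block. It was 0 on the 29 satellite windows alone, an alternative chosen after seeing the data, which leaves out the 2 that pass. On the 9 windows whose whole sequence occurs once, also chosen after seeing the data, the count was 2 and the median log2 fold change 0.17. It stayed at 2 with the exact test, with DESeq2 and without any single library. The median log2 fold change of 0.14 was 0.0062 with TMM factors and 0.0018 with DESeq2 size factors. It was 0.35 on those 4 windows, 2 of which are in Sfi1 and Drg1, and from 0.12 to 0.16 without any single library. Of the 9 regions described by rule, 9 were higher with siNsun2 under the recovered totals and 5 with TMM factors. The count of 1 shared window past the threshold of the interaction was 2 with DESeq2, 2 with the replicate block, and 0 with TMM factors, where the second window reversed to 0.046. It was also 0 with near-identical pairs summed, an alternative chosen after seeing the data. As the selection fixed this difference, these counts support nothing. It ranged from 1 to 2 without any single library, and was 2 without WT siNC replicate 1. Apart from the constructions named here, the cause was not tested. Merging windows up to 500 bp apart gave 17 regions in place of 18.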
